A study of Mus musculus with 6 samples.

Results

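The testis-specific serine kinases (TSSK) are a small family of protein kinases made by haploid germ cells. The 8 genes described here are the 6 family members Tssk1 to Tssk6 together with Stk33 and Stk35, other serine/threonine kinases that do not belong to the family by name. They were chosen by gene name, and each matched 1 of the 55331 rows of the authors' deposited gene table. The libraries came from whole testes of mice aged 35 days on a mixed strain background. The conditional knockout mice, here Ptbp1_cKO, carried floxed Ptbp1 alleles and the Amh-Cre transgene (Ptbp1fl/fl; Amh-Cre+/-), and the control mice carried the same floxed alleles without Cre (Ptbp1fl/fl). There were 3 libraries in each group. The Amh promoter drives Cre in Sertoli cells, the somatic cells that enclose and support germ cells, and the study asked what the splicing regulator PTBP1 does there. A group with Amh-Cre and unfloxed Ptbp1 is not among the samples, so the deletion and the transgene cannot be told apart. Whether the libraries stem from separate animals is not stated in the labels.

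TSSK proteins appear mostly after meiosis, in spermatids and sperm, where they phosphorylate structural and chromatin proteins. They depend on the chaperone HSP90 for stability, and several are required for male fertility in mice. STK33 is also needed in mouse spermatids, for assembly of the sperm tail, whereas STK35, also called CLIK1, is made in many tissues. Germ cells are not a target of Amh-Cre, so the comparison asks whether these germ cell transcripts differed in testes whose Sertoli cells were the site of recombination. Only testis was sampled, so the word "specific" in the family name was not examined here.

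The deposited table holds 1 FPKM value (fragments scaled to transcript length and to the size of the library) per gene and group. Values per library were not used here, so the values below are the authors' group values, without a spread. Steps between the lowest FPKM values gave the depth. At an effective length of 1 kb, 1 FPKM stood for about 204 fragments over the Ptbp1_cKO libraries and 226 over the control libraries. Ptbp1 itself was at 46.66 FPKM in Ptbp1_cKO and 49.97 FPKM in control (q = 0.999 in the authors' deposited table). A gene-level value from whole testis does not check a deletion confined to one cell type. In a bulk sample, fewer cells of a type and less RNA per cell cannot be told apart.

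None of the 8 kinase genes differed between Ptbp1_cKO and control at q under 0.05 in the authors' deposited Cuffdiff test. Of all 22048 tested genes, 256 or 1.16% passed that threshold, 0.458% as higher and 0.703% as lower in Ptbp1_cKO. None of the 8 had an unadjusted p under 0.05 either, against 8.98% of tested genes. Tssk2, Tssk6 and Stk35 had the higher FPKM in Ptbp1_cKO, and Tssk1, Tssk3, Tssk4, Tssk5 and Stk33 the lower one, except that Tssk1 turned to a log2 fold change of 0.015 when each group was divided by its sum of FPKM. Fold changes ran from 0.836 times control for Tssk5 to 1.15 times for Tssk6. The 8 genes summed to 971.9 FPKM in Ptbp1_cKO and 966.2 FPKM in control, a ratio of 1.006.

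**Figure D1:**
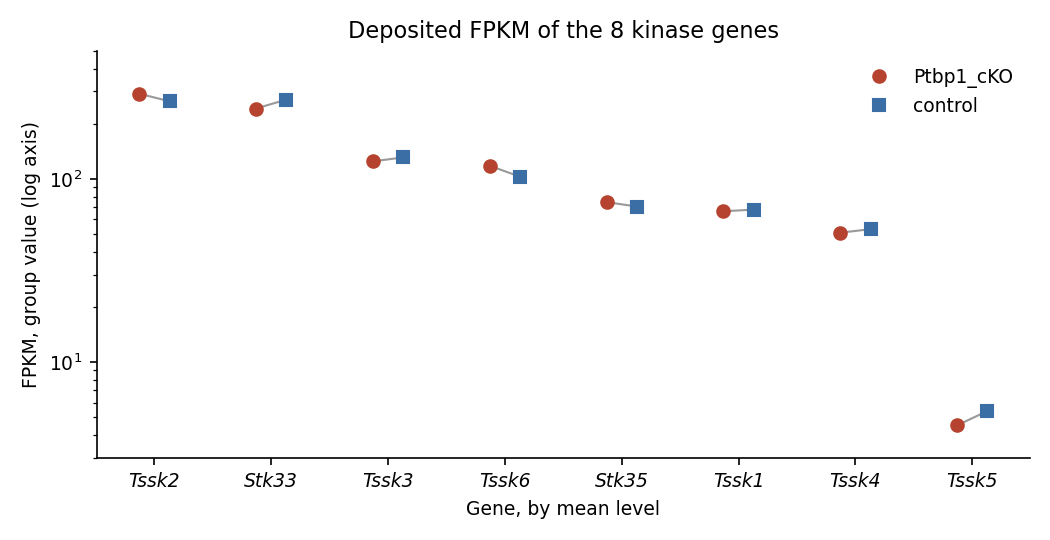
Deposited FPKM of each kinase gene (vertical log axis) in Ptbp1_cKO (circles) and control (squares), 1 group value each, with genes ordered by mean level. Both values lie close together for every gene, and levels reach from 4.51 FPKM for Tssk5 to 291.4 FPKM for Tssk2 in Ptbp1_cKO.

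Tssk1 and Tssk2 are the founding pair of the family, and mice that lack both are sterile. They lie in tandem on chromosome 16 (mm10), each as a single exon on the forward strand, Tssk1 (ENSMUSG00000041566.3) at 17894223 to 17897922 and Tssk2 (ENSMUSG00000045521.7) at 17898637 to 17900024, with 714 bp between them in GENCODE release M21. Their coding sequences, of 1095 and 1074 nt without the stop codon, were 81.4% identical over 1050 aligned positions. The other 27 pairs among the 8 genes were between 56.2% and 64.6% identical over their aligned positions. Those positions covered 47.6% to 93.3% of the longer sequence. Tssk3 and Stk35, at 64.0%, were among the closer of these pairs, so this range does not set the TSSK genes apart. No annotated transcript matched any of the 8 genes at 95% identity over 80% of its length.

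The windows before the start sites of this pair hold a stretch that aligns, and 80 bases of each are shown because a short octamer recurs in them. The sequences are RefSeq's for GRCm38.p6, on the forward strand, at chr16:17894123-17894202 for Tssk1 and chr16:17898557-17898636 for Tssk2. The last base shown directly precedes the RefSeq start site. Capitals mark TGACTTCA or its reverse complement.
Tssk1: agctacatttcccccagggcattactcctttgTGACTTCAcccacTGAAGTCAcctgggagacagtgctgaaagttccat
Tssk2: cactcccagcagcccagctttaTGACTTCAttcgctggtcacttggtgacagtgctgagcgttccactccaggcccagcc

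The best local alignment of both promoters covered 49 positions at 83.7% identity, starting 53 bases before the Tssk1 start and 63 bases before the Tssk2 start. This is the best stretch within the windows, and no value for other pairs of promoters is given beside it. TGACTTCA was picked after the sequences were seen, and 1.52% of all 32851 RefSeq promoter windows of 300 bases held it on either strand. A further 3 motifs were searched on both strands in the windows of the 6 kinase genes that had one (Tssk1, Tssk2, Tssk3, Tssk4, Tssk6 and Stk35). These are RefSeq windows, and RefSeq begins Tssk4 at 55643651 and Tssk3 at 129491730. GENCODE begins them at 55650184 and 129491022, so the windows need not lie before the GENCODE starts given below. TGACGTCA, the full cAMP response element that the spermatid activator CREM can bind, occurred in 0 of 6 windows and in 1.79% of all windows. Its shorter form TGACG occurred in 1 of 6, that of Tssk6, and in 20.8% of all. TATAAA occurred in 0 of 6 and in 13.6% of all. These matches describe letters in a window and say nothing of binding.

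Tssk2 was the most abundant of the 8 in Ptbp1_cKO, at 291.4 FPKM against 264.9 FPKM in control. Its log2 fold change was 0.14 (p = 0.162, q = 0.825 in the authors' deposited table). A mean level this high was exceeded by few genes, since 98.0% of tested genes had a lower mean FPKM. Tssk1 stood at 66.5 FPKM in Ptbp1_cKO and 67.9 FPKM in control, with a log2 fold change of -0.03 (p = 0.793, q = 0.999 in the authors' deposited table). The FPKM values of the neighbours thus lay apart within each group, with Tssk2 at 4.38 times Tssk1 in Ptbp1_cKO and 3.90 times in control.

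The gap in level depended on the annotated length of Tssk1. GENCODE gives Tssk1 a transcript of 3700 nt, and RefSeq a gene of 1451 bp that starts at nearly the same place. The FPKM values corresponded to about 46600 fragments for Tssk1 and 66700 for Tssk2 in Ptbp1_cKO, and to 52800 and 67500 in control, if the authors' annotation had the GENCODE lengths. If all Tssk1 fragments lay within the RefSeq gene, its level would be 192.5 FPKM in Ptbp1_cKO and 196.3 FPKM in control. Tssk2 would then be at 1.51 times Tssk1 in Ptbp1_cKO and 1.35 times in control. Where along the annotated transcript the fragments lay was not tested. This length applies to both groups alike and leaves the fold change of Tssk1 as it was.

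**Figure D2:**
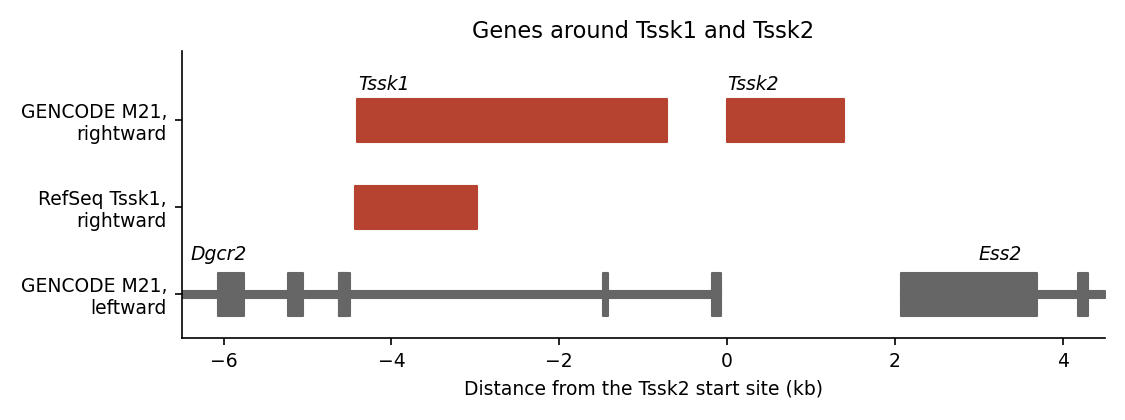
Genes around Tssk1 and Tssk2, drawn to scale as distance from the Tssk2 start site in kb; boxes are exons, thin bars are gene spans, and rightward and leftward name the direction of transcription. Tssk1 is 3700 nt long in GENCODE M21 and 1451 bp in RefSeq, and the leftward gene Dgcr2 starts 75 bp before Tssk2.

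Dgcr2, transcribed in the opposite direction, spans Tssk1, and its first base lies 75 bp before that of Tssk2. It stood at 37.3 FPKM in Ptbp1_cKO and 30.4 FPKM in control (log2 fold change 0.29, q = 0.926 in the authors' deposited table). Its exons share 63 bp with Tssk1. The libraries were stranded, per the labels' protocols, and whether fragments were counted by strand is not stated there. The next gene beyond Tssk2, Ess2, stood at 9.79 FPKM in Ptbp1_cKO and 9.48 FPKM in control.

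Tssk3 and Tssk6 are the shortest of the 8 by coding length, with 804 and 819 nt. TSSK6 is needed for chromatin condensation in mouse sperm, and mice without it are sterile. Tssk6 (ENSMUSG00000047654.6, chromosome 8, 69902184 to 69903518, forward strand, 1 exon) had 117.8 FPKM in Ptbp1_cKO and 102.7 FPKM in control. Its log2 fold change of 0.20 was the largest rise among the 8, with p = 0.128 and q = 0.764 in the authors' deposited table. This gene overlaps exons of Ndufa13, a respiratory chain gene of the reverse strand, over 375 bp, so its value is uncertain unless counting used strand. Ndufa13 stood at 65.8 FPKM in Ptbp1_cKO and 71.0 FPKM in control (log2 fold change -0.11, q = 0.999 in the authors' deposited table). The part of Ndufa13 fragments in the Tssk6 value was not tested. Tssk3 (ENSMUSG00000000411.7, chromosome 4, 129489014 to 129491022, reverse strand, 2 exons), also required for fertility in male mice, had 124.5 FPKM in Ptbp1_cKO and 130.9 FPKM in control. The log2 fold change was -0.07, and q was 0.999, in the authors' deposited table.

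TSSK4 phosphorylates ODF2, a protein of the outer dense fibres of the sperm tail. Tssk4 (ENSMUSG00000007591.15, chromosome 14, 55650184 to 55652539, forward strand) was at 50.8 FPKM in Ptbp1_cKO and 53.1 FPKM in control, a log2 fold change of -0.06 (q = 0.999 in the authors' deposited table). Tssk5 (ENSMUSG00000060794.8, chromosome 15, 76371952 to 76374938, reverse strand) was the least abundant by a wide margin, at 4.51 FPKM in Ptbp1_cKO and 5.40 FPKM in control. Tssk2 stood at 64.6 times its level in Ptbp1_cKO and 49.1 times in control. Tssk5 had the largest fold change of the 8 in either direction, -0.26 on the log2 scale, with p = 0.198 and q = 0.865 in the authors' deposited table. Of the tested genes that reached 1 FPKM in either group, 20.2% had a larger absolute log2 fold change.

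STK33 phosphorylates the anchoring proteins AKAP3 and AKAP4 of the fibrous sheath, a scaffold of the sperm tail. Stk33 (ENSMUSG00000031027.15, chromosome 7, 109279223 to 109439081, reverse strand) had 241.9 FPKM in Ptbp1_cKO and 270.7 FPKM in control. Its log2 fold change of -0.16 carried the smallest p of the 8, 0.102, with q = 0.709 in the authors' deposited table. An antisense gene at its start, 1700095J03Rik, shares 365 bp of exon with it and stood at 18.8 FPKM in Ptbp1_cKO and 19.5 FPKM in control. Stk35 (ENSMUSG00000037885.18, chromosome 2, 129800517 to 129832287, forward strand) had 74.6 FPKM in Ptbp1_cKO and 70.6 FPKM in control, a log2 fold change of 0.08 (q = 0.999 in the authors' deposited table).

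The order of levels was nearly the same in both groups. Stk33 and Tssk2 exchanged the top places, Tssk2 being first in Ptbp1_cKO and Stk33 first in control, with Tssk2 at 1.20 times Stk33 in Ptbp1_cKO and 0.979 times in control. Below them came Tssk3, Tssk6, Stk35, Tssk1, Tssk4 and Tssk5 in each group, except that Tssk1 would be above Tssk3 in both groups on its RefSeq length (192.5 FPKM in Ptbp1_cKO and 196.3 FPKM in control), so its place depends on the annotated length. Without a spread between libraries, no neighbours in this order can be called different. The 6 TSSK genes summed to 655.4 FPKM in Ptbp1_cKO and 625.0 FPKM in control, a ratio of 1.049. Stk33 and Stk35 summed to 316.4 FPKM in Ptbp1_cKO and 341.3 FPKM in control, a ratio of 0.927. The median difference of log2(FPKM + 1) over the 8 genes was -0.046, beside 0.004 over all tested genes.

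**Figure D3:**
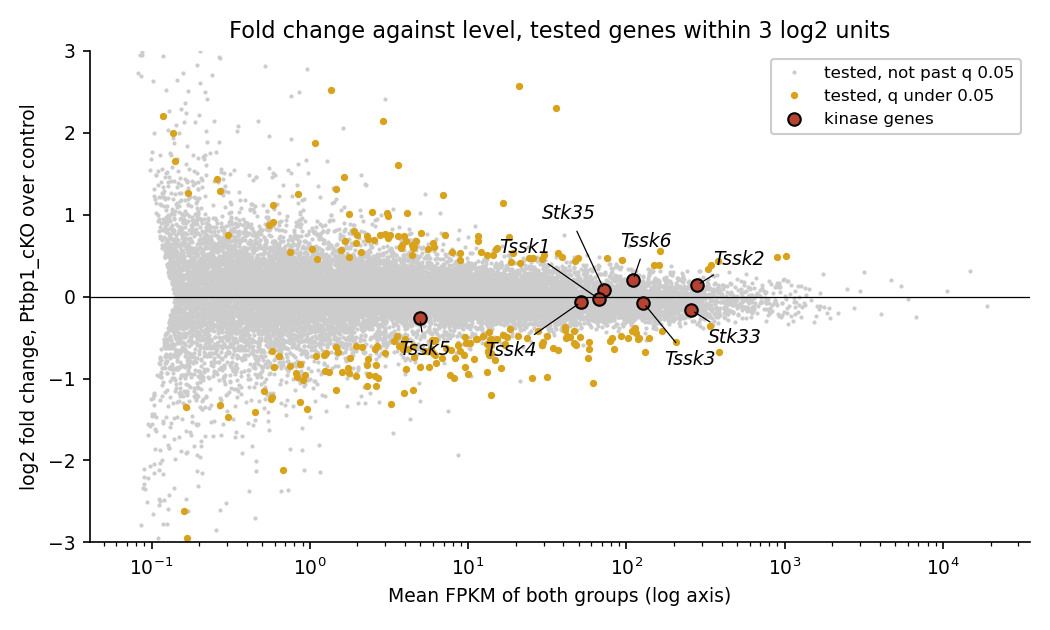
Log2 fold change, Ptbp1_cKO over control, against mean FPKM (log axis) for tested genes above 0 in both groups; grey points did not pass q 0.05, yellow points did, and red points are the 8 kinase genes. Genes beyond 3 log2 units are outside the plot. The kinase genes lie between -0.26 and 0.20, inside the grey cloud at their level.

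A missed threshold does not show that levels were alike, so the size of change called at these levels is given here. Of 2313 tested genes with a mean FPKM between 50 and 300, the range that holds 7 of the 8 kinase genes (all but Tssk5), 25 passed q under 0.05. The smallest absolute log2 fold change among these 25 was 0.38, and their median was 0.51. These sizes belong to genes already picked by q, so they are not a limit of detection for the kinase genes. The 7 kinase genes ranged from -0.16 to 0.20, and the median absolute value of all 2313 genes was 0.11. Counting error was small beside these differences, at 0.387% to 0.624% of the value in Ptbp1_cKO and 0.385% to 0.633% in control for the 4 kinase genes with a single annotated transcript (Tssk1, Tssk2, Tssk3 and Tssk6). It covers counting alone and not the spread between mice.

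Genes for proteins that bind, regulate or receive phosphate from these kinases were listed next. Of 13 such genes, 12 were tested, 0 were higher and 0 lower at q under 0.05 (background 1.16%), and 2 had an unadjusted p under 0.05 (background 8.98%). The median difference of log2(FPKM + 1) was 0.038. These 2 were Hsp90aa1, which encodes the chaperone HSP90 alpha, and Vim, an intermediate filament gene of somatic cells whose product STK33 phosphorylates in vitro. Hsp90aa1 stood at 1362.5 FPKM in Ptbp1_cKO and 1683.6 FPKM in control, a log2 fold change of -0.31 (p = 0.0206, q = 0.383 in the authors' deposited table). Vim stood at 21.2 FPKM in Ptbp1_cKO and 17.4 FPKM in control, a log2 fold change of 0.28 (p = 0.0131, q = 0.303 in the authors' deposited table). Both values fell short of the threshold over all genes, and they point in opposite directions.

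Tsacc encodes the co-chaperone that activates TSSK6, and it had 385.4 FPKM in Ptbp1_cKO and 344.6 FPKM in control (log2 fold change 0.16, q = 0.759 in the authors' deposited table). Ppp1cc, the phosphatase subunit of sperm, had 597.4 FPKM in Ptbp1_cKO and 649.6 FPKM in control. Akap4, the main fibrous sheath gene and a target of STK33, had 590.7 FPKM in Ptbp1_cKO and 588.5 FPKM in control. Tsks, the substrate named after the family, had 354.0 FPKM in Ptbp1_cKO and 345.3 FPKM in control. The partner genes with the highest levels were thus as abundant as the kinases or more so. Odf2, the TSSK4 substrate, was listed at 0 in both groups with the status HIDATA, which marks too many fragments to test, so no level is given.

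**Figure D4:**
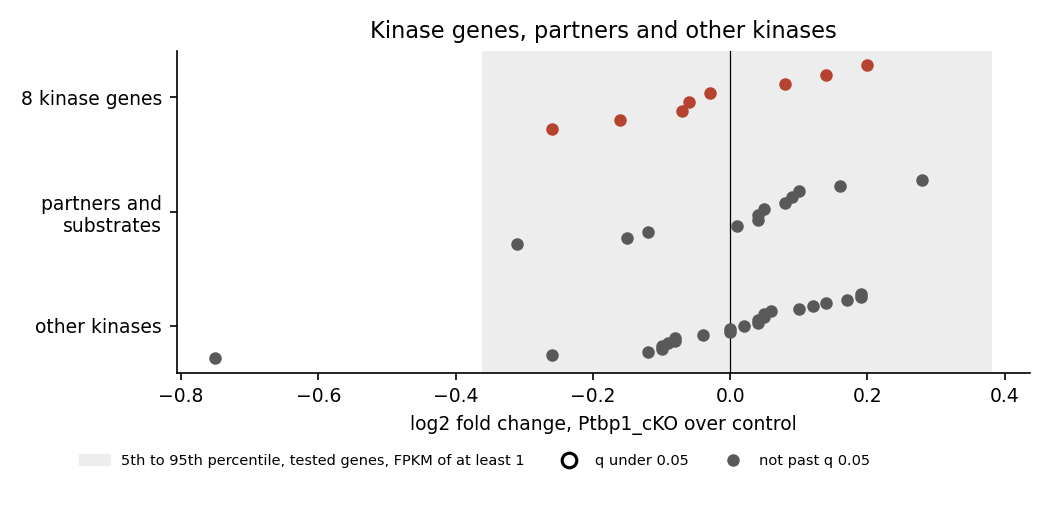
Log2 fold change, Ptbp1_cKO over control, of the tested genes among the 8 kinase genes (red), their partners and substrates, and other kinases of germ cells and sperm (grey); each point is 1 gene, spread vertically by rank. The band spans the 5th to 95th percentile, -0.36 to 0.38, of tested genes that reached 1 FPKM, and 1 point, Mos, lies outside it.

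Other kinases known from germ cells and sperm were listed for comparison. Of 24 such genes in the table, 23 were tested, 0 were higher and 0 lower at q under 0.05 (background 1.16%), and 2 had an unadjusted p under 0.05 (background 8.98%), counts near the background. The median difference of log2(FPKM + 1) was 0.012. The most abundant were Csnk1g2, a casein kinase, at 507.7 FPKM in Ptbp1_cKO and 466.5 FPKM in control, and the testicular kinase Tesk1 at 352.8 FPKM in Ptbp1_cKO and 341.0 FPKM in control. Mak stood at 137.3 FPKM in Ptbp1_cKO and 145.1 FPKM in control, and Stk11, which encodes LKB1, at 113.4 FPKM in Ptbp1_cKO and 116.2 FPKM in control. Tssk2 and Stk33 therefore stood below Csnk1g2 and Tesk1, and above Mak and Stk11, in both groups.

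The largest differences in that list, among genes that reached 1 FPKM, were in Stk31, Stk36 and Cdk2. Stk31, a germ cell kinase with a Tudor domain, had 25.8 FPKM in Ptbp1_cKO and 30.9 FPKM in control (log2 fold change -0.26, p = 0.0169, q = 0.345 in the authors' deposited table). Stk36 had 80.1 FPKM in Ptbp1_cKO and 70.3 FPKM in control, and Cdk2, which acts in meiosis, had 25.5 FPKM in Ptbp1_cKO and 22.4 FPKM in control. Mos, an oocyte kinase named here after its value was seen, was the other gene with an unadjusted p under 0.05, at 0.276 FPKM in Ptbp1_cKO and 0.463 FPKM in control (q = 0.335 in the authors' deposited table).

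Markers of the cells in the samples give the context for these levels. Defining markers of spermatids were abundant, with the transition protein gene Tnp1 at 18243.7 FPKM in Ptbp1_cKO and 19772.6 FPKM in control and Tex33 at 942.1 FPKM in Ptbp1_cKO and 994.5 FPKM in control. The most abundant spermatocyte marker, the synaptonemal complex gene Syce1, had 281.4 FPKM in Ptbp1_cKO and 308.2 FPKM in control. The most abundant gene of the spermatogonial list, Dmrtb1, had 1191.2 FPKM in Ptbp1_cKO and 1283.7 FPKM in control. The next of that list, Uchl1, had only 54.7 FPKM in Ptbp1_cKO and 40.3 FPKM in control. Which cells the Dmrtb1 transcripts came from was not tested, so its level is not taken as one of spermatogonia. Tested markers with the higher FPKM in Ptbp1_cKO numbered 8 of 11 for elongating spermatids, 3 of 10 for round spermatids, 1 of 10 for spermatocytes, 8 of 10 for spermatogonia, 10 of 12 for Sertoli cells and 3 of 6 for Leydig cells. No marker of the first 3 of these cell types passed q under 0.05. The median differences of log2(FPKM + 1) were 0.126 for elongating spermatids, -0.125 for round spermatids, -0.123 for spermatocytes, 0.092 for spermatogonia, 0.152 for Sertoli cells and -0.035 for Leydig cells. The value for the 8 kinase genes, -0.046, lay between those of round and elongating spermatids. So did the values of spermatocytes, spermatogonia, Leydig cells and all tested genes (0.004), and the nearest marker list was that of Leydig cells. This place therefore does not tie the kinase genes to spermatids. Summed levels were 57701.6 FPKM in Ptbp1_cKO and 54447.1 FPKM in control for elongating spermatid markers, and 2075.0 FPKM in Ptbp1_cKO and 2163.6 FPKM in control for round spermatid markers. In the former sum, Prm1 alone had 16362.2 FPKM in Ptbp1_cKO and 13135.3 FPKM in control, whereas Tnp1, the largest part, was lower in Ptbp1_cKO. Sertoli cell markers summed to 1830.3 FPKM in Ptbp1_cKO and 1483.9 FPKM in control, most of it Clu. Prm2 of the elongating spermatid list was listed at 0 in both groups with the status HIDATA. The part of the cell makeup in the kinase levels was not tested.

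The 4 calls among these markers were spermatogonial, Sertoli cell and Leydig cell genes (background 1.16% of all tested genes). The spermatogonial genes Kit and Uchl1, 2 of 10 tested, rose, to 4.574 FPKM in Ptbp1_cKO against 3.001 FPKM in control and to 54.7 FPKM in Ptbp1_cKO against 40.3 FPKM in control (in the authors' deposited table, q = 0.00848 for Kit and 0.0420 for Uchl1). The Sertoli cell gene Clu, 1 of 12 tested, rose to 1198.8 FPKM in Ptbp1_cKO against 853.6 FPKM in control, and the Leydig cell hormone gene Insl3, 1 of 6 tested, to 1048.6 FPKM in Ptbp1_cKO against 749.6 FPKM in control (for each, the authors' deposited table gives q = 0.00848). Of the 6 Leydig cell markers, 3 had the lower FPKM in Ptbp1_cKO, among them Star, which carries cholesterol into mitochondria, with 63.6 FPKM in Ptbp1_cKO and 85.5 FPKM in control (log2 fold change -0.43, p = 0.0149, q = 0.321 by the authors' deposited values). None of the 4 calls held when p was taken from the authors' statistic as a normal deviate, by which 19 of all tested genes (0.0862%) passed.

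**Figure D5:**
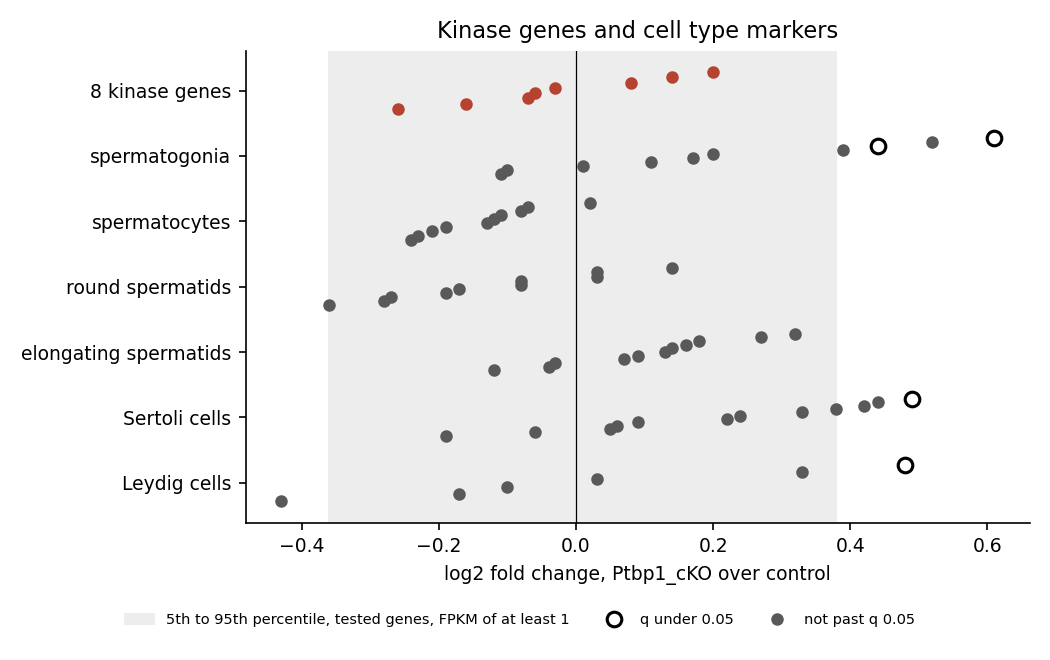
Log2 fold change, Ptbp1_cKO over control, of the 8 kinase genes (red) and of tested markers of 6 cell types (grey; open circles passed q under 0.05); each point is 1 gene, spread vertically by rank. The kinase genes span -0.26 to 0.20, and the 4 open circles are Kit, Uchl1, Clu and Insl3.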

How the data were processed

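Polyadenylated RNA was sequenced from 3 Ptbp1_cKO and 3 control testis libraries, grouped by title. Per the submitters' processing notes, the tools included STAR 2.6.1d, Trimmomatic 0.38 and bcl2fastq 2.20, Cufflinks and Cuffdiff, on mm10. The annotation release and Cuffdiff's settings are not stated in the sources read. The authors' deposited table gives an FPKM per group, the log2 fold change, a signed test score, a p-value and a q-value, per the file headers. Of 55331 genes, 22048 were tested. Calls were Cuffdiff's own, with q under 0.05, adjusted over all tested genes; p-values speak for these libraries only.

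Medians used log2(FPKM + 1) over genes that reached 0.1 FPKM, a scale that understates changes of low genes. For the alternative p, 28 tested genes without a finite statistic were set to 1. Fragment weights came from 3206 single-exon, single-transcript genes of 1500 to 6000 bp; 100.0% of 428 low values in Ptbp1_cKO and 99.5% of 430 in control lay within 1% of a sum of 1 or 2 steps. The code for the alternative p and the fragment weights was tested on simulated data. For the alternative p these were drawn as normal deviates, so that test cannot tell whether the authors' statistic is one. Positions come from GENCODE M21, which matched 98.6% of gene identifiers. Copies were sought with BLAST 2.17.0 and coding sequences aligned with Biopython 1.88.

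The kinase genes and the lists were chosen with earlier results of these data known. Named genes were all 8 kinases, their neighbours and overlapping genes, list members past q or with the largest change (3 per gene list) or highest mean (4 per gene list, 1 per marker list), and the 3 genes nearest in level to Tssk2. Tsks, Odf2, Prm1, Prm2, Mos and Star were named after their values were seen.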

Additional observations from a re-analysis of the deposited data

How the results depend on the processing

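The count of kinase genes past the threshold stayed at 0 with the normal p from the statistic and with adjustment over genes with an FPKM of at least 1 (smallest q among the 8, 0.673) or at least 0.1. The adjustments could not have changed this count, because an adjusted value never falls below its p. The smallest deposited Cuffdiff p of the 8 was 0.102, for Stk33. By the normal p, fewer of all tested genes passed, 19 against 256, so it was the stricter choice. Of 40 alternative fold changes of the 8 genes (2 pseudocounts and 3 scalings), 39 kept their direction; they carry no test of their own. The exception was Tssk1, whose log2 fold change turned to 0.015 after scaling by the sum of FPKM. The shift between groups removed by that scaling was -0.045 on the log2 scale, and those removed by the median and the upper quartile were -0.005 and -0.012. The last 2 shifts were smaller than the smallest absolute fold change of the 8, that of Tssk1 (log2 fold change -0.03). A pseudocount added to both groups cannot turn a direction either. Most of the 40 directions were therefore fixed beforehand, and the count of 39 does not measure stability. The ratio of summed FPKM was 0.970 without Tssk2, 1.049 without Stk33 and Stk35, and 1.037 after scaling by the sum of FPKM, so its direction depends on which members are summed. All 27 list medians recomputed with another pseudocount or filter moved by less than 0.1, a limit wider than several of the medians themselves. Those without a filter could not move, because every tested gene of the lists reached 0.1 FPKM. With a pseudocount of 0.1, the median rose from 0.092 to 0.164 for spermatogonia and from 0.152 to 0.215 for Sertoli cells. With the normal p, 0 spermatogonial, 0 Sertoli cell and 0 Leydig cell markers passed, against 2, 1 and 1 with the deposited test; the cause was not tested. The Tssk1 level of 66.5 FPKM in Ptbp1_cKO became 192.5 FPKM on the RefSeq length, an alternative chosen after seeing the data. No paired analysis was possible because the table gives 1 value per group, and for the same reason no replicate could be left out.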

Other observations

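By distance in log2 FPKM over the 2 group values, the tested genes nearest to Tssk2 were Usp2, a ubiquitin protease, at 285.4 FPKM in Ptbp1_cKO and 269.9 FPKM in control, Cdyl, a chromodomain gene, at 285.9 FPKM in Ptbp1_cKO and 271.3 FPKM in control, and Agbl5, a tubulin deglutamylase, at 287.6 FPKM in Ptbp1_cKO and 273.1 FPKM in control. With 1 value per group this likeness is one of level alone.

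Levels of the genes beside the kinases varied widely. Of 19 neighbouring or overlapping genes, some of them untested, 0 passed q under 0.05 (background 1.16% of tested genes). In both groups, 9 of the 19 were under 1 FPKM. In GENCODE, Fam229a starts 168 bp from the start of Tssk3 and runs the other way. It had 327.3 FPKM in Ptbp1_cKO and 303.1 FPKM in control. RefSeq begins Tssk3 at 129491730, inside the GENCODE span of Fam229a (129491190 to 129491956). What this means for the value of Tssk3 was not tested. Tssk3 itself was lower in Ptbp1_cKO by its deposited value, and neither gene passed the threshold. Gatad2a, next to Tssk6, had 87.5 FPKM in Ptbp1_cKO and 100.4 FPKM in control (log2 fold change -0.20, q = 0.974 in the authors' deposited table), whereas Tssk6 had a log2 fold change of 0.20. Trim66, next to Stk33, had 10.5 FPKM in Ptbp1_cKO and 9.45 FPKM in control. The neighbours of Tssk5 were Hgh1, at 6.30 FPKM in Ptbp1_cKO and 5.75 FPKM in control, and Mroh1, at 17.8 FPKM in Ptbp1_cKO and 17.5 FPKM in control. Yjefn3, which overlaps Tssk6, had 0.962 FPKM in Ptbp1_cKO and 0.911 FPKM in control, and the 8 neighbouring or overlapping genes not named otherwise (Cilp2 and 7 with Gm names) were also under 1 FPKM in both groups. Bsdc1, on the other side of Tssk3, had 58.3 FPKM in Ptbp1_cKO and 53.7 FPKM in control.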
